A study of Mus musculus with 6 samples.

Results

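The genes described here encode MR1, its light chain B2m, and 8 proteins that act in the loading or the trafficking of MR1 and related molecules. They were taken by gene symbol from the deposited expression tables: Mr1, B2m, Tapbp, Tapbpl, Stx18, Vamp4, Ap2a1, Ap2b1, Ap2m1 and Atp13a1. These are 10 of the 24346 gene symbols in the tables, and the rule uses no measured value, though earlier results of these data were known when it was set. RNA sequencing compared parental CT26.mMR1 cells with M8 cells, with 3 samples of each line. CT26 is a mouse colorectal tumor line, labelled as colon, and both lines carry mouse MR1 introduced by retroviral transduction, which the labels call MR1-overexpressing. M8 is a mutant obtained by treating CT26.mMR1 cells with the mutagen ENU and cloning by limiting dilution. The paper reports that M8 was among the mutants that raised the response of a T cell reporter line. It was followed up because its surface MR1 was also above that of parental cells, and the methods name surface MR1 as the screen. The sample titles of both lines carry the tag cl9, and whether it marks a clone of CT26.mMR1 is not given in the sources used here. All 3 M8 samples come from 1 mutant clone, so properties of the clone and effects of any 1 mutation cannot be told apart, and p-values measure only the spread between these samples. Untransduced CT26 cells were not analysed here.

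MR1 is an MHC class I-like heavy chain that presents small metabolites, including vitamin B2 derivatives of microbes, to mucosal-associated invariant T (MAIT) cells. Without a ligand MR1 waits in the endoplasmic reticulum (ER), where tapasin and the tapasin-related protein TAPBPR act as chaperones for it. Ligand binding lets MR1 pair stably with B2m and travel to the plasma membrane, and the AP2 adaptor complex later draws it into clathrin-coated vesicles. Syntaxin 18 and VAMP4 are SNARE proteins of intracellular membrane fusion, and ATP13A1 is a transporter ATPase of the ER membrane.

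The depth estimated from the spacing of low FPKM values was, in units of 1000000 reads, 23.8 to 27.0 in the parental samples and 19.4 to 21.98 in M8. Each M8 sample was shallower than each parental one, and the part of depth in the differences below was not tested. FPKM is a unit that scales fragments to transcript length and library size. Of 10597 genes whose mean FPKM reached 1, 3995 (37.7%) had a limma adjusted p below 0.1. Of these, 2250 (21.2%) were higher and 1745 (16.5%) lower in M8. After conversion to TPM the split was 1656 higher and 2208 lower, and after upper-quartile scaling it was 1848 higher and 2154 lower. Without M8 replicate 1 the genes called lower numbered 1142. The 3 values of 1 line lay entirely above those of the other in 45.2% of the tested genes. As to the labelled tissue, 4 of 10 epithelial markers (Epcam, Cdh1, Krt19 and Cdx2) were listed at 0 in every library and 2, Krt18 and Krt20, had a mean FPKM of at least 1. Of 6 fibroblast markers, 5 had a mean FPKM of at least 1, with a summed FPKM of 605 to 638 in parental cells and 585 to 616 in M8, most of it Col1a2 (477 to 505 FPKM in parental cells, 456 to 475 in M8). Single markers were called in both directions. Pdgfra (fell by 0.43 on the log2 scale, limma adjusted p = 0.00903), Dcn (fell by 0.38, 0.0245) and the epithelial Krt20 (fell by 0.50, 0.00438) were lower in M8, and Pdgfrb was higher (0.25, 0.00787). Their part in the results for the 10 genes was not tested. None of 8 leukocyte and none of 4 endothelial markers reached a mean FPKM of 1.

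All 10 genes passed the filter on low values. Tapbp, Tapbpl, Ap2m1 and Atp13a1 were higher in M8, Vamp4 was lower, and Mr1, B2m, Stx18, Ap2a1 and Ap2b1 did not pass the test. The 5 genes called made up 50% of the 10, against 37.7% of all tested genes. The median log2 fold change (M8 minus parental, of FPKM + 1) was 0.069 over the 10 genes and 0.0069 over all genes tested. The samples of the 2 lines did not overlap in 7 of the 10 genes, 5 with M8 higher (24.8% of all tested genes) and 2 with M8 lower (20.4%). In RNA from whole cultures, fewer cells with a transcript and fewer copies in each cell cannot be told apart. The plot of FPKM in every sample shows how far the abundance of these transcripts was spread.

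**Figure D1:**
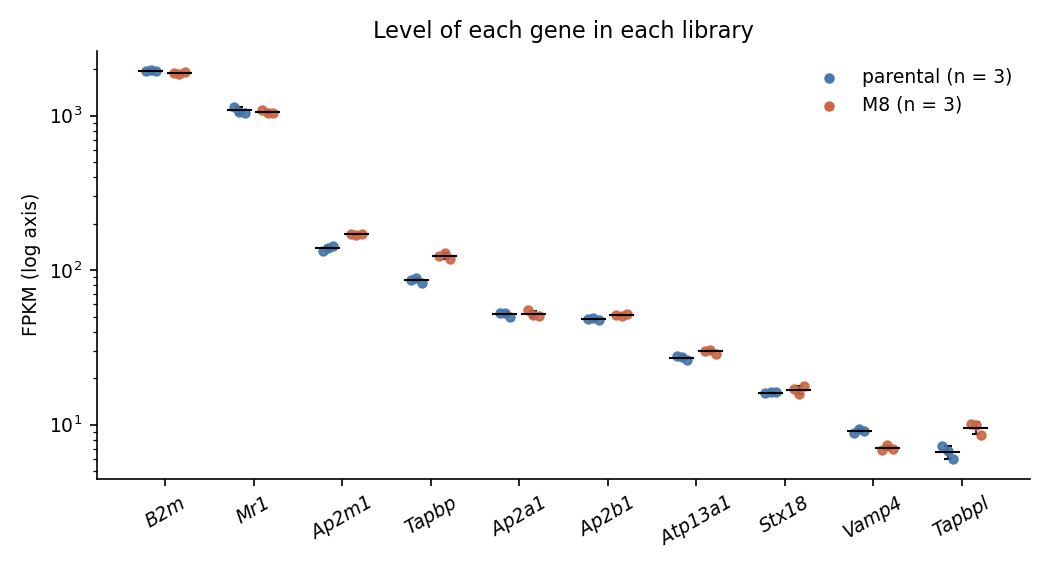
FPKM on a log axis for each of the 10 genes in the 3 parental and 3 M8 samples, 1 point a sample, with horizontal lines at the means and error bars of 1 SD. B2m and Mr1 lay highest, Tapbpl and Vamp4 lowest, and the ratio of the means of the lines was farthest from 1 for Tapbp and Tapbpl, at 1.43.

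The first question was whether transcripts of MR1 itself and of its light chain differed in M8. Mr1, which encodes the heavy chain, lies on the minus strand of chromosome 1 (chr1:155127277-155146814, mm10). Its FPKM was 1139, 1057 and 1046 in the 3 parental samples and 1095, 1035 and 1034 in M8. The ranges of the 2 lines overlapped, with the highest value in a parental sample and the lowest in an M8 sample. The means were 1081 ± 51.0 in parental cells and 1055 ± 34.7 in M8 (SD, n = 3 each). The log2 fold change was -0.035, with a 95% confidence interval of -0.14 to 0.071 and a limma adjusted p of 0.615. On the fold scale the interval ran from 0.907 to 1.05. Reads from the vector and from the endogenous gene are summed in these values and cannot be told apart, and which parts of the transcript the vector carries is not given in the sources used here. Only 40.7% of the 2512 bases of the annotated full coding transcript are coding, and FPKM divides by transcript length, so the level of Mr1 relative to other genes depends on those parts.

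B2m encodes beta-2 microglobulin, the light chain shared by MR1 and the class I heavy chains, and lies at chr2:122147686-122153083 on the plus strand. Its FPKM was 1949, 1968 and 1954 in parental cells and 1878, 1849.5 and 1923 in M8. Every M8 sample was lower than every parental sample. The log2 fold change of -0.055 had a 95% interval of -0.14 to 0.032 and did not pass the test (limma adjusted p = 0.316). After conversion to TPM, B2m was called lower in M8, with a log2 fold change of -0.093 and an adjusted p of 0.0736. Among the 24346 symbols, B2m ranked 50 to 57 by FPKM over the 6 libraries and Mr1 ranked 85 to 97.

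The ratio of B2m to Mr1 within a library is not changed by scaling each library with a single factor. It was 1.71, 1.86 and 1.87 in parental cells and 1.72, 1.79 and 1.86 in M8, and the ranges overlapped almost completely. The means of 1.81 ± 0.0888 and 1.79 ± 0.0723 (SD, n = 3 each) did not differ beyond the spread (exact two-sided permutation p = 0.7). The smallest p this permutation test can give with 3 samples against 3 is 0.1, so it cannot reach 0.05 for a ratio here. This ratio and that of Ap2a1 to Ap2a2 were planned. The other 5 ratios of pairs of genes given below were chosen after the values were seen and are descriptions with no test.

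B2m also pairs with other heavy chains, of which 9 were considered. Mr1 made up 54.7 to 58.0% of the summed FPKM of Mr1 and these 9 genes in parental cells and 56.8 to 59.8% in M8, with overlapping ranges. B2m per summed heavy chain FPKM was 0.993 to 1.05 in parental cells and 1.02 to 1.06 in M8, again with overlapping ranges. The reference genome is from C57BL/6 and CT26 from BALB/c mice, and classical class I genes differ in sequence between these strains, so their levels, and shares that include them, are uncertain. Of the 9 heavy chains 7 were tested, 1 was higher and 2 were lower in M8, beside 37.7% called among all genes. H2-T23, a non-classical class I heavy chain, rose with a log2 fold change of 0.46 (limma adjusted p = 0.00289). Fcgrt, the heavy chain of the neonatal Fc receptor, fell by 0.28 on the log2 scale (limma adjusted p = 0.00516). H2-D1, a classical heavy chain, fell by 0.14 on the log2 scale (limma adjusted p = 0.0383), with 725.7, 724.6 and 755.4 FPKM in parental cells and 638, 681 and 684.5 in M8. Without M8 replicate 1, H2-D1 was not called (adjusted p = 0.159). The heavy chains called numbered 2 higher and 2 lower without parental replicate 3, and 1 higher and 3 lower without parental replicate 1. Mr1 per H2-D1 was 1.47 ± 0.0933 in parental cells and 1.58 ± 0.116 in M8, and these ranges overlapped. The heavy chain genes Cd1d1 and Cd1d2 were listed at 0 in every library.

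The genes most like Mr1 across the 6 samples were found by the root mean square difference of log2 values centred on each gene's mean. The nearest of 10596 other genes were Arhgap21 at 0.0142, Clock at 0.0144 and Polr3a at 0.0156, where the median gene was at 0.109. Of the other 9 genes studied here the nearest was Ap2a1, in place 313 at 0.0445, and B2m was in place 725 at 0.0544. These are flat profiles, so the measure mainly finds genes with little change between samples.

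Next, the chaperones that act on MR1 in the ER were compared. Tapbp encodes tapasin, which bridges class I heavy chains to the peptide transporter TAP and edits their cargo, and lies on the plus strand at chr17:33915899-33929292. Its FPKM was 86.8, 88.7 and 83.0 in parental cells and 122.95, 128 and 118 in M8. All M8 samples lay far above the parental ones, and the gap between the lines was wider than the range within either. The means were 86.2 ± 2.87 and 122.9 ± 5.24 (SD, n = 3 each), a 1.43-fold difference. The log2 fold change was 0.51 ± 0.045 (SE), with a limma adjusted p of 0.000206, and Tapbp was called higher under all 17 alternatives tried, at log2 fold changes of 0.42 to 0.54. Of the exon bases of Tapbp, 24.9% are overlapped by the antisense gene Gm19412, and 4.11% are shared on the same strand with Zbtb22, whose log2 fold change was 0.032 (limma adjusted p = 0.699). Whether the authors' quantification used the strand of the reads is not given in the sources used here, so reads of Tapbp and Gm19412 may not be told apart.

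Tapbpl encodes TAPBPR, a relative of tapasin that edits class I cargo outside the peptide-loading complex, and lies on the minus strand at chr6:125223933-125231860. Its FPKM was 7.28, 6.73 and 5.98 in parental cells and 10.1, 9.95 and 8.51 in M8. All M8 samples were higher than all parental samples, though the lowest M8 value came closer to the highest parental value than for Tapbp. The log2 fold change was 0.46 ± 0.084 (SE), a 1.43-fold difference of means with a limma adjusted p of 0.00436, and the call held under all 17 alternatives, at 0.39 to 0.53. At this level about 346 to 480 reads are estimated to lie behind each value, a counting error of about 5.38% at the lowest. The SD between samples was larger, at 9.81% of the mean in parental cells and 9.35% in M8. The read estimate rests on GENCODE M21 transcript lengths, and the lengths behind the FPKM values are not given in the sources used here.

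Of 6 other genes for loading of class I-like molecules in the ER (Tap1, Tap2, Calr, Canx, Pdia3 and Uggt1), limma called none higher and 2 lower, beside 21.2% and 16.5% of all tested genes. The median of the 6 was -0.071. At an unadjusted p below 0.05, 1 was higher (Tap1, the other subunit of the peptide transporter, log2 fold change 0.11) and 2 were lower. With TPM, upper-quartile or quantile scaling 4 of the 6 were called lower. Without parental replicate 2, 1 was called higher and 3 lower, and with a mean FPKM of at least 5 required, 1 was called higher and 2 lower. Tap2, a subunit of the peptide transporter, fell by 0.17 on the log2 scale (limma adjusted p = 0.0362), from 68.5, 64.2 and 60.7 FPKM in parental cells to 57.8, 58.7 and 55.15 in M8. Canx, the chaperone calnexin, fell by 0.11 (limma adjusted p = 0.0590). Without M8 replicate 3 neither was called (adjusted p = 0.118 for Tap2 and 0.114 for Canx), and Canx was also lost without parental replicate 3 (0.131), M8 replicate 1 (0.155) or M8 replicate 2 (0.142).

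Since Tapbp rose and B2m did not, RefSeq promoter sequences of both (300 bases around the annotated start of transcription, GRCm38.p6, plus strand) are shown, with those of Ap2m1 and Vamp4, which moved in opposite directions. Capitals mark matches, on either strand, to 5 motifs: an interferon response core (GAAA, any 2 bases, GAAA), the GAS element TTCNNNGAA, an NF-kappaB core (GGGA, any 4 bases, CC), the cAMP response element TGACGTCA and the E-box CACGTG. The GC box GGGCGG and the CCAAT box were searched on both strands too and are not capitalised.
B2m, chr2:122147437-122147736: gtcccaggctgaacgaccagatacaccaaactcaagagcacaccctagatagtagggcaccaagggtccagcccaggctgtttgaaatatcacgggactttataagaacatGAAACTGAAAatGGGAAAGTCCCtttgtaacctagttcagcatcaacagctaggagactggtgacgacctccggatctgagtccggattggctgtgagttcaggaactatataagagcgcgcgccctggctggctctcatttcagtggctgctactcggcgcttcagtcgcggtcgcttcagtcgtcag
Tapbp, chr17:33919228-33919527: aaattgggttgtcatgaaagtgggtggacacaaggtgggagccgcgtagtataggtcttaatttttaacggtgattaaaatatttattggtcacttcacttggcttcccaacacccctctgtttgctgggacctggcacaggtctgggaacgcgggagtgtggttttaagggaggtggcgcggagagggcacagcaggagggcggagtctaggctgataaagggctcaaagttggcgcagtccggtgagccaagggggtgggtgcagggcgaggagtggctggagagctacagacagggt
Ap2m1, chr16:20535230-20535529: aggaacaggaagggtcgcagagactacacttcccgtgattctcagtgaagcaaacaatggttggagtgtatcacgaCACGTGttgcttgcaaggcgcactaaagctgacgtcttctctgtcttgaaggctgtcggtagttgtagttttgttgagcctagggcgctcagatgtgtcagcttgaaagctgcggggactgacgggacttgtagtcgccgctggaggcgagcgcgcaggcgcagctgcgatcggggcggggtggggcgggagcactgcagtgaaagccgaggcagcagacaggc
Vamp4, chr1:162570265-162570564: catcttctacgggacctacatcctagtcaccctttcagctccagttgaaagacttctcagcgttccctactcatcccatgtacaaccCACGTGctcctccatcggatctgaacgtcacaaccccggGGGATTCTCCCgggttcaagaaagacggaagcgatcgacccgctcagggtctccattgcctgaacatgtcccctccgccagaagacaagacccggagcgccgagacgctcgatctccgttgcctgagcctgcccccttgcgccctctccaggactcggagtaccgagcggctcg

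The B2m promoter holds an interferon response core starting 139 bases before the start and, 127 bases before it, an NF-kappaB core that overlaps a second match on the other strand. Such an interferon response core is found in 3.44% of 32851 RefSeq promoters of this length, and an NF-kappaB core in 20.7%. The Tapbp window holds none of the 5 motifs. It lies inside the annotated locus, which begins upstream at chr17:33915899, and the sequence around that upstream start was not searched. A GC box, found in 35.7% of promoters, is present in the Tapbp and Ap2m1 windows, and a CCAAT box, found in 37.4%, in the Tapbp and B2m windows. No window shown holds the GAS element (8.30% of promoters) or the cAMP response element (1.79%). Among windows not printed, that of Ap2b1 holds a cAMP response element 47 bases before the start. Those of Ap2a1 and Stx18 hold an NF-kappaB core, and none of these genes was called. The Mr1 and Atp13a1 windows hold none of the 5 motifs. The Ap2m1 window holds an E-box 174 bases before the start, as does the Vamp4 window at 163 bases, and 7.15% of promoters hold one. Vamp4 also has an NF-kappaB core 124 bases before the start, again with an overlapping match on the other strand. These matches are descriptions of sequence, and no factor was measured. Tapbpl had no promoter entry, and a second Vamp4 window, at chr1:162570578-162570877 and not printed, holds neither an E-box nor an NF-kappaB core and has 3 GC boxes. Of 7 regulators of the B2m and class I promoters, 1 was higher (Rfxap, a subunit of the RFX factor, log2 fold change 0.25, limma adjusted p = 0.0404) and 1 was lower (Irf2, an interferon regulatory factor, fell by 0.19, limma adjusted p = 0.0776). Their median log2 fold change was -0.054, and 37.7% of all tested genes were called. Leaving out 1 sample ended the call of Rfxap without M8 replicate 1 or 3 (adjusted p up to 0.123) and that of Irf2 in 4 of 6 such fits (adjusted p up to 0.257, without M8 replicate 1). Across 17 alternatives the call of Rfxap was lost in 3, among them the fit with no filter, and that of Irf2 in 7.

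The SNARE genes were then examined. Stx18 encodes syntaxin 18, a SNARE of the ER membrane that takes part in retrograde transport from the Golgi, and lies on the plus strand at chr5:38038742-38137765. Its FPKM was 16.02, 16.3 and 16.15 in parental cells and 17.02, 15.8 and 17.8 in M8. The M8 values lay on both sides of the parental ones, whose spread was small. The log2 fold change of 0.059 had a 95% interval of -0.060 to 0.18 (limma adjusted p = 0.435). It was 0.022 without M8 replicate 3 and 0.10 without M8 replicate 2, and Stx18 passed the test in neither. On the other strand, Gm42858 overlaps 19.8% of the exon bases of Stx18 and Nsg1 overlaps 12.5%, the latter at 0.637 to 1.16 FPKM over the 6 samples. Of the 8 genes whose products form the SNARE and tether complex with syntaxin 18, 1 was higher and 1 was lower, beside 37.7% of all tested genes called. The median of the 8 was 0.038. Scfd1, the Sec1-family partner of ER and Golgi SNAREs, rose by 0.21 (limma adjusted p = 0.00842), and Rint1, a tether subunit, fell by 0.22 on the log2 scale (limma adjusted p = 0.0971). The call of Rint1 was lost in 5 of 6 fits that left out 1 sample, all but that without parental replicate 3, with an adjusted p of up to 0.259 (without parental replicate 1, at a log2 fold change of -0.13). It was also lost with quantile normalization (-0.14, adjusted p = 0.266) and with no filter (adjusted p = 0.181).

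Vamp4, on the plus strand at chr1:162570515-162599084, encodes a SNARE of the trans-Golgi network and of endosomes. Its FPKM was 8.86, 9.36 and 9.04 in parental cells and 6.90, 7.33 and 6.997 in M8. Every M8 sample was lower than every parental sample. Vamp4 fell by 0.32 on the log2 scale (SE 0.056, ratio of means 0.778, limma adjusted p = 0.00341), and it was called lower under all 17 alternatives, at -0.36 to -0.30. Its annotated coding transcripts run from 901 to 2752 bases, so the reads behind each value are estimated only as 100 to 623.

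Among 4 trans-Golgi SNARE partners of VAMP4, limma called none higher and 2 lower, beside 21.2% and 16.5% of all tested genes. At an unadjusted p below 0.05 the counts were the same, and the median of the 4 was -0.12. Stx6, syntaxin 6, fell by 0.19 on the log2 scale (limma adjusted p = 0.0359), from 21.0, 21.9 and 23.2 FPKM to 19.7, 18.1 and 19.98. Stx16, syntaxin 16, fell by 0.20 (limma adjusted p = 0.0596), and Vti1a, which completes this SNARE set, had a log2 fold change of 0.063 that did not pass the test (limma adjusted p = 0.405). Without M8 replicate 2 neither syntaxin was called (adjusted p = 0.129 for Stx6 and 0.195 for Stx16), and Stx16 was called in 1 of 6 fits that left out 1 sample.

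The AP2 adaptor, which gathers cargo into clathrin-coated vesicles at the plasma membrane, has a large alpha and a large beta subunit, a medium mu subunit and a small sigma subunit. Ap2a1 and Ap2b1 encode an alpha and the beta subunit, and Ap2m1 encodes mu, the subunit that reads tyrosine-based sorting signals. Ap2m1, on the plus strand at chr16:20535478-20544909, measured 134, 139 and 142 FPKM in parental cells and 171, 169 and 170.3 in M8. All M8 samples were higher and lay close together. The difference of means was 1.23-fold, the log2 fold change was 0.30 ± 0.038 (SE), and the limma adjusted p was 0.000979. The call held under all 17 alternatives, at log2 fold changes of 0.20 to 0.32.

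The other AP2 members moved less. Ap2a1, on the minus strand at chr7:44900373-44929496, measured 52.5, 53.0 and 49.99 FPKM in parental cells and 55.0, 51.6 and 50.55 in M8. Its ranges overlapped, and the log2 fold change of 0.015 had a 95% interval of -0.089 to 0.12 (limma adjusted p = 0.830). That direction flipped with TPM, upper-quartile and quantile scaling. In Ap2a1, 16.7% of the exon bases are overlapped by Fuz on the other strand, which had a log2 fold change of -0.17 (limma adjusted p = 0.256).

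Ap2b1, on the plus strand at chr11:83299024-83405035, measured 48.1, 49.2 and 47.3 FPKM in parental cells and 50.96, 50.3 and 51.7 in M8. Each M8 sample was higher than each parental one by a small margin. The log2 fold change of 0.080, with a 95% interval of -0.0075 to 0.17, did not pass the test (limma adjusted p = 0.153). Over the 17 alternatives it ran from 0.0060 to 0.094.

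Among subunits outside the 10 genes, Ap2a2, the alternative alpha subunit, rose by 0.21 on the log2 scale (limma adjusted p = 0.00889), from 64.6, 70.2 and 66.3 FPKM to 75.6, 77.0 and 79.9. Ap2s1, the sigma subunit, had a log2 fold change of 0.036 and did not pass the test (limma adjusted p = 0.583). The FPKM ratio of Ap2a1 to Ap2a2 was 0.813, 0.754 and 0.754 in parental cells and 0.728, 0.670 and 0.633 in M8. The M8 ratios were all lower, a log2 difference of -0.19 at the smallest p this permutation test can give (exact two-sided permutation p = 0.1, adjusted over the 2 planned ratios 0.2).

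The level of Ap2m1 was also set against each of the other 4 AP2 subunit genes. Ap2m1 per Ap2b1 was 2.87 ± 0.125 in parental cells and 3.34 ± 0.0383 in M8. Ap2m1 per Ap2a1 went from 2.67 ± 0.158 to 3.25 ± 0.137, and Ap2m1 per Ap2s1 from 0.680 ± 0.0527 to 0.815 ± 0.0294 (SD, n = 3 each), in each case with all M8 ratios above the parental ones. Against Ap2a2, which rose as well, the ratio was 2.07, 1.97 and 2.15 in parental cells and 2.26, 2.198 and 2.13 in M8, and the ranges overlapped. The plot of AP2 subunits shows all 5 genes relative to their parental means.

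**Figure D2:**
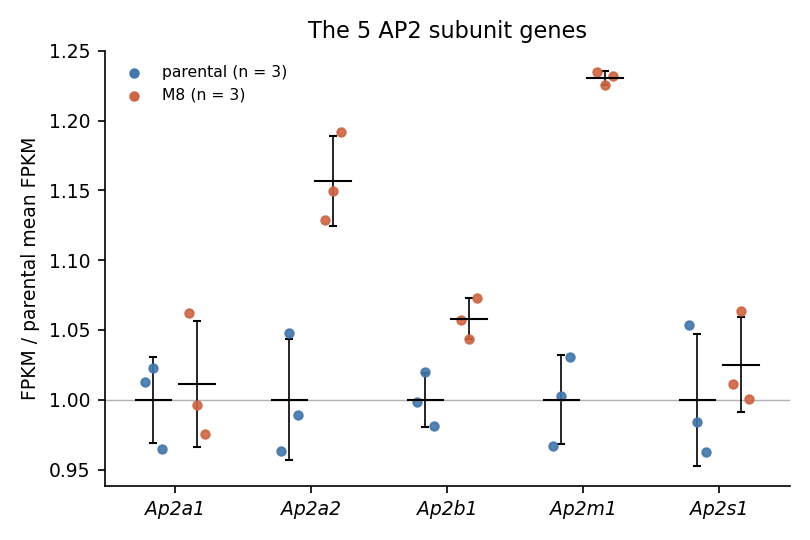
FPKM of the 5 AP2 subunit genes in each sample, divided by the gene's parental mean, with 1 point a sample, a horizontal line at each mean and error bars of 1 SD. The M8 points of Ap2m1 and Ap2a2 lie above all parental points, those of Ap2b1 slightly above, and those of Ap2a1 and Ap2s1 overlap the parental points.

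Of 12 other AP2 and clathrin coat genes, 11 were tested, 3 were higher and 2 lower in M8, beside 37.7% of all tested genes called. The median of the list was 0.0089. With TPM, upper-quartile or quantile scaling 1 was higher, Ap2a2, and 3 or 4 were lower. Leaving out 1 sample left 2 called higher without parental replicate 1, parental replicate 2 or M8 replicate 3, and 1 without parental replicate 3, M8 replicate 1 or M8 replicate 2, and without M8 replicate 2 Ap2a2 was the 1 gene of the list called in either direction. Besides Ap2a2, the genes that changed most were Fcho2, an early factor in coated pit formation, which fell by 0.18 on the log2 scale (limma adjusted p = 0.0341), and Cltb, clathrin light chain B, which fell by 0.17 (limma adjusted p = 0.0674). Without M8 replicate 2 neither Fcho2 (adjusted p = 0.114) nor Cltb (0.194) was called, and Cltb was also lost without parental replicate 3 (0.148) or M8 replicate 3 (0.146). Its log2 fold change was -0.10 without parental replicate 3, and its call was lost in 6 of 17 alternatives. The related adaptors AP1 and AP3 act at the trans-Golgi network and endosomes. Of their 15 subunit genes, 13 were tested, 3 were higher and 1 was lower, again beside 37.7% of all tested genes, with a median of 0.053. Ap1s1 rose by 0.26 (limma adjusted p = 0.00230), Ap3d1 rose by 0.30 (limma adjusted p = 0.00406), and Ap1s2 fell by 0.32 (limma adjusted p = 0.00563) on the log2 scale. The small AP1 subunits Ap1s1 and Ap1s2 thus moved in opposite directions.

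Atp13a1 encodes a P5 ATPase of the ER that removes mislocalised membrane proteins, and lies on the plus strand at chr8:69791163-69807749. Its FPKM was 27.8, 27.2 and 26.2 in parental cells and 30.1, 30.4 and 28.8 in M8. The M8 samples were all higher, by a margin smaller than the range of either line. The means of 27.1 ± 0.802 and 29.8 ± 0.847 (SD, n = 3 each) differed 1.10-fold, with a log2 fold change of 0.13 ± 0.045 (SE) and a limma adjusted p of 0.0546. This call was lost in 8 of 17 alternatives. The adjusted p was 0.200 with TPM, 0.111 with upper-quartile and 0.176 with quantile scaling. It was 0.105 without parental replicate 2, 0.125 without parental replicate 3, 0.151 without M8 replicate 1 and 0.162 without M8 replicate 2, and the remaining loss was at a threshold of 0.05. Of the other P5 ATPases, 2 of 4 were expressed enough to test and limma called neither (nor was either below an unadjusted p of 0.05). Atp13a3, a polyamine transporter, had a log2 fold change of -0.055 (limma adjusted p = 0.400).

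**Figure D3:**
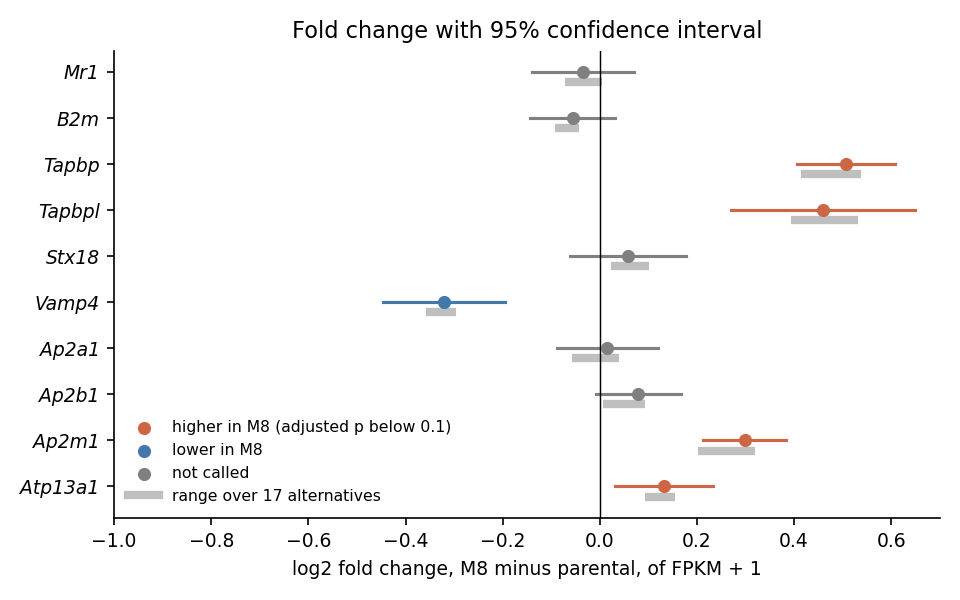
Log2 fold change (M8 minus parental, of FPKM + 1) of each of the 10 genes, with its 95% confidence interval as a line and the range over 17 alternatives as a grey bar. Tapbp at 0.51, Tapbpl at 0.46 and Ap2m1 at 0.30 lie to the right of 0 and Vamp4 at -0.32 to the left, while the interval of Mr1 spans 0.

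By FPKM, which is per length, the order in parental cells was B2m, Mr1, Ap2m1, Tapbp, Ap2a1, Ap2b1, Atp13a1, Stx18, Vamp4 and Tapbpl, and no neighbours in this order overlapped. In M8, Ap2a1 and Ap2b1 overlapped, and Tapbpl stood above Vamp4 without overlap, the reverse of their parental order.

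Over the 8 lists of 65 partner genes, 58 were tested, 9 were higher and 11 lower in M8. That is 34.5% called, beside 37.7% of all tested genes, and the median log2 fold change was -0.022. The split was 7 higher and 14 lower with TPM and 7 and 15 with upper-quartile or quantile scaling. The 20 calls fell to 12 without M8 replicate 1 and to 11 without M8 replicate 2, and were 14 to 19 without any other single sample. The plot of the lists shows each gene, and the lists were chosen by function with earlier results of these data known.

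**Figure D4:**
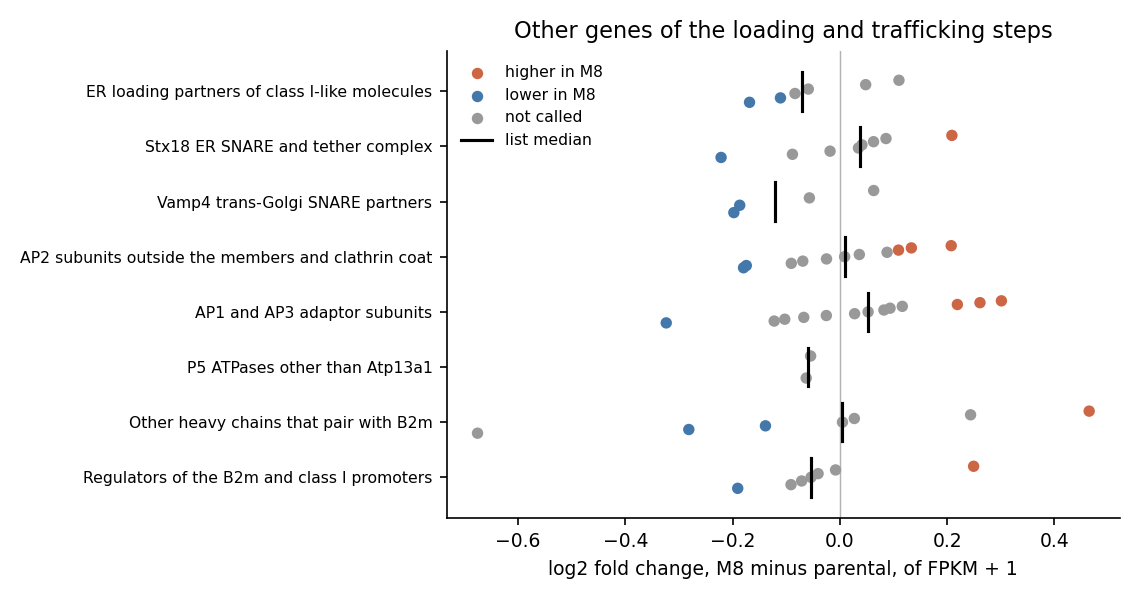
Log2 fold change (M8 minus parental, of FPKM + 1) of each tested gene in the 8 lists, 1 point a gene, coloured by its call, with each list's median as a line. Medians run from -0.12 for the trans-Golgi SNARE partners of VAMP4 to 0.053 for AP1 and AP3 subunits, and most genes were not called.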

How the data were processed

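RNA from 3 parental CT26.mMR1 and 3 M8 samples was made into stranded mRNA libraries. Reads were aligned by the authors to mm10 using TopHat, and FPKM values calculated by Cufflinks were deposited for 24346 gene symbols in each sample. The submitters' processing notes name TopHat2 2.1.1, Bowtie2 2.2.8, SAMtools 0.1.18 and Cuffdiff 2.2.1, and the annotation is not given in the sources used here. FPKM values carry no read counts, so depth was estimated from the spacing of low values: 71.3 to 74.8% of these lay within 0.1 of a whole read. Intervals on those estimates cover counting error only.

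The lines were compared on log2(FPKM + 1) by limma 3.58.1 under R 4.3.3, using lmFit and a trended eBayes, a fit also tested on simulated data. It covered 10597 genes whose mean FPKM was 1 or more, with Benjamini-Hochberg adjustment over all of them and a threshold of 0.1. Fold changes on this scale understate those of low genes. The count-based comparison of the authors was not used. The 2 planned ratios were compared by exact two-sided permutation tests. All 10 genes were named, and in each list the 3 or fewer called genes with the largest change or, with none called, the gene of highest mean FPKM, and the 3 genes most like Mr1. Tap1, Vti1a, Ap2s1, Zbtb22, Fuz, Nsg1 and other overlapping genes were chosen after their values were seen. Members and lists were chosen with earlier results of these data known. Alternatives were other pseudocounts, filters, scalings and thresholds, a replicate block and leaving out each sample. Gene positions, and the transcript lengths behind read estimates, are from GENCODE M21 (GRCm38, the same assembly as mm10). Tables and plots came from pandas 2.3.3, matplotlib 3.10.9 and scipy 1.17.1, run in Python 3.11.15.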

Additional observations from a re-analysis of the deposited data

How the results depend on the processing

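The calls of Tapbp, Tapbpl, Ap2m1 and Vamp4 kept their direction and their side of the threshold under all 17 alternatives tried, 4 or 5 of the 10 genes were called under each, and between 2733 and 4005 genes were called in all. Atp13a1 was the gene whose call was lost, and B2m the gene whose call was gained. The fold change of Ap2a1 turned to -0.021 with TPM, -0.012 with upper-quartile scaling and -0.057 with quantile normalization, and leaving out 1 sample gave -0.020 to 0.040. That of Mr1 ranged from -0.062 to 0.0039 when 1 sample was left out, with the positive value without parental replicate 1. The log2 ratio of B2m to Mr1 ranged from -0.062 to 0.0085 in the same way. The cause of these changes was not tested. With the replicate number as a block 3859 genes and 5 of the 10 were called, and no call among the 10 changed. Samples with the same number did not deviate together (correlations of 0.10, -0.11 and -0.033), and those with different numbers gave -0.13 to 0.18. With so few samples these correlations cannot decide whether the numbers pair the samples, which is not given in the sources used here. Of the 17 list genes called and named, 7 were called under every alternative, namely Scfd1, Ap2a2, Ap1s2, Ap3d1, Ap1s1, H2-T23 and Fcgrt. The size of a change could still move, as for Ap2a2, from 0.21 to 0.13 on the log2 scale with quantile normalization. The smallest change that 3 samples against 3 can show was not measured. In the main fit a change smaller than the 0.13 of Atp13a1 was called, that of Canx at -0.11 (limma adjusted p = 0.0590).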
